A study of Mus musculus with 6 samples.

Results

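The elastic fibre genes of the mouse lung are described here as a set of 10 genes chosen by name, *Eln*, *Fbn1*, *Fbn2*, *Mfap4*, *Ltbp4*, *Fbln2*, *Fbln5*, *Efemp2*, *Lox* and *Loxl1*, and all 10 were found among the 54532 genes of the deposited count table. RNA was measured by sequencing in perfused whole lungs of untreated mice at 2 months old, with 3 libraries of wild-type (WT) mice and 3 of *ISM1* knockout (*ISM1*-/-) mice. WT mice were C57BL/6J animals bought from a supplier, and *ISM1*-/- mice were bred in-house on the same background, so a difference between genotypes cannot be told apart from one between these sources. The knockout allele is not described in the sources used here. The study calls the libraries of a genotype biological replicates, without saying whether each is 1 animal, and p-values measure the spread between these libraries.

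Elastic fibres let the lung recoil after each breath. Cells secrete tropoelastin, the soluble product of *Eln*, which is deposited on a scaffold of fibrillin microfibrils with the help of fibulins and latent TGFβ-binding proteins, and lysyl oxidases then cross-link it into an insoluble polymer. Loss of elastic fibres is a known feature of emphysema, and the comparison asks whether the RNA of the fibre's components differed between the lungs of the genotypes. RNA levels, and not fibres or protein, were measured. In whole lung, fewer cells of a type and less RNA per cell cannot be told apart.

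Of the 10 elastic fibre genes, 1 was called as different between the genotypes, and this call held in 3 of 6 fits with 1 library left out. *Lox*, which encodes the cross-linking enzyme lysyl oxidase, was 1.35-fold higher in the libraries labelled *ISM1*-/-, and no member was called lower. The core protein gene *Eln* was at 92.6% of its WT mean and the microfibril gene *Fbn1* at 100.5%, and neither passed the test. The test was edgeR's quasi-likelihood test over 18689 genes, and a gene was called where its p, adjusted by the Benjamini-Hochberg method, was below 0.1. It called 4.72% of all genes tested, 1.38% as higher and 3.34% as lower, and 1 member of 10 is near that background. At an unadjusted p under 0.05 there were 3 members of 10 (*Lox*, *Fbln5* and *Loxl1*), beside 15.8% of all genes tested.

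Libraries held between 37606133 and 42345042 counts, of which the 10 genes took between 0.204% and 0.253%. Values below are CPM, a gene's counts scaled to a common library total, with the TMM correction for library composition, and log2 fold changes are *ISM1*-/- over WT. The targeted gene *Ism1* was at 82.1, 77.4 and 76.9 CPM in the WT libraries and at 65.4, 66.0 and 75.6 CPM in the libraries labelled *ISM1*-/-, so transcript was still present and its level does not check the labels. Its log2 fold change was −0.19 (SE 0.0709, edgeR adjusted p = 0.217). Markers listed for lung cells were present in every library, including those of type 2 alveolar cells (summed 16090 to 17689 CPM over 4 genes) and of endothelium (2712 to 3036 CPM over 4 genes). Cartilage markers summed to at most 1.01 CPM over 5 genes. Heart and fat markers were present too: 6 cardiomyocyte genes summed to 1418 CPM in WT replicate 1 against 449 and 535 CPM in the other WT libraries and 240 to 478 CPM in *ISM1*-/-, and 5 adipocyte genes to 131 to 170 CPM in WT against 27.1 to 69.8 CPM in *ISM1*-/-.

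On the per-length scale of the deposited FPKM values (fragments scaled to a gene's length and to the library total), the levels of the 10 genes spanned more than 3 orders of magnitude. *Mfap4*, a microfibril-associated glycoprotein gene, had the highest level, at 459 ± 59.0 FPKM (SD over 6 libraries). *Ltbp4*, which encodes a latent TGFβ-binding protein that guides elastin assembly, followed at 251 ± 27.6 FPKM, and *Eln* at 140 ± 9.89 FPKM. These 3 genes did not overlap each other in any library. *Fbln5*, *Efemp2* and *Loxl1* lay together at 47.6, 47.5 and 46.0 FPKM, and their ranges over the 6 libraries overlapped, so their order is not resolved. *Fbn1* came next at 27.6 ± 0.735 FPKM. *Fbln2* and *Lox*, at 16.3 and 15.6 FPKM, overlapped as well. *Fbn2*, the fibrillin of developing tissue, was nearly silent at 0.175 ± 0.0143 FPKM.

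**Figure D1:**
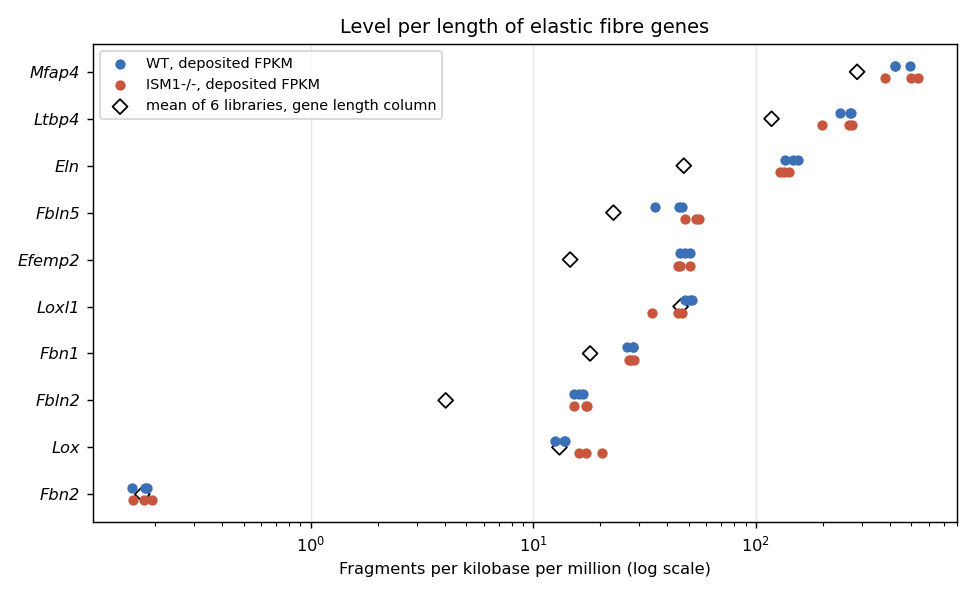
Level per length of each elastic fibre gene, with deposited FPKM of the 6 libraries as filled points (log axis) and, as open diamonds, the mean over the 6 libraries when the counts are divided by the gene length column of the table. *Mfap4*, *Ltbp4* and *Eln* are the top 3 on either scale, while *Efemp2* and *Fbln2* move furthest to the left.

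The order in the middle of this scale depends on the length that the counts are divided by. The lengths implied by the deposited FPKM values are whole numbers, and for *Eln* the length was 2744 bases where the table's own length column has 8098. In the 7 members whose position is the same in GENCODE release M21, the implied length was the mean length of the annotated transcripts, rounded down. *Fbln2*, one of these 7, was divided by 1577 bases in place of 6370. *Efemp2*, whose position differs in that release, was divided by 816 in place of 2648, while *Loxl1*, with a single annotated transcript, had 3297 bases on both scales. With the column's lengths *Mfap4*, *Ltbp4*, *Eln* and *Fbn2* kept their places and the other 6 genes changed rank: *Loxl1* rose to rank 4, *Efemp2* fell to rank 7 and *Fbln2* to rank 9. A comparison of genotypes within a gene does not use the length.

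*Eln* (ENSMUSG00000029675) lies on the reverse strand of chromosome 5, from 134702593 to 134747323 on GRCm38, the build used by the authors. It had 403, 370 and 425 CPM in WT and 384, 367 and 357 CPM in *ISM1*-/-. The lowest WT library lay below the highest *ISM1*-/- library, so the genotypes overlapped. The log2 fold change of *Eln* was −0.11 (SE 0.0655, edgeR adjusted p = 0.459), and its 95% interval ran from 0.836-fold to 1.02-fold. An antisense gene, *Gm30003*, shares 267 exon bases with *Eln*, and since the strand setting of the counting is not stated, its reads cannot be told apart there. It had a mean of 55.0 counts against 15212 for *Eln*.

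The fibrillins form the microfibril scaffold. *Fbn1*, the main fibrillin of adult tissue and the gene mutated in Marfan syndrome, was the most even member over the 6 libraries, with a coefficient of variation of 2.46%. Its values were 222, 209 and 222 CPM in WT and 216, 224 and 217 CPM in *ISM1*-/-. The genotypes overlapped, and the log2 fold change was 0.01 (SE 0.0539, adjusted p = 0.968 from the edgeR test) with a 95% interval of 0.925-fold to 1.09-fold. *Fbn1* (chromosome 2, 125300594 to 125507993, reverse strand) shares 2442 exon bases with *Gm9913*, annotated as protein-coding on the opposite strand, whose mean count was 90.2 against 8639. *Fbn2* (chromosome 18) had few counts, 62, 78 and 74 for WT against 86, 71 and 66 for *ISM1*-/-, and at this depth its interval was the widest of the 10, from 0.777-fold to 1.36-fold (adjusted p = 0.950 from the edgeR test).

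*Mfap4* encodes a protein that binds fibrillin and tropoelastin, and *Ltbp4* helps fibulin-5 to place elastin on microfibrils. *Mfap4* (chromosome 11, 61485431 to 61488900, forward strand) had 501, 506 and 588 CPM in WT and 637, 593 and 463 CPM in *ISM1*-/-. *Ltbp4* (chromosome 7, 27305136 to 27337692, reverse strand) had 801, 814 and 726 CPM in WT and 819, 790 and 614 CPM in *ISM1*-/-. In both genes *ISM1*-/- replicate 3 was the lowest library of all 6 and *ISM1*-/- replicate 1 the highest. The log2 fold changes were 0.09 for *Mfap4* (SE 0.113, adjusted p = 0.782) and −0.07 for *Ltbp4* (SE 0.103, adjusted p = 0.798), both from edgeR's quasi-likelihood test. Without *ISM1*-/- replicate 3 they were 0.21 (adjusted p = 0.183) and 0.05 (adjusted p = 0.754), and the sign for *Ltbp4* turned. Without *ISM1*-/- replicate 1 the value for *Mfap4* was −0.01. *Mfap4* shares 89 exon bases with the opposite-strand gene *Mapk7*, which averaged 1366 counts against 21732 for *Mfap4*.

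**Figure D2:**
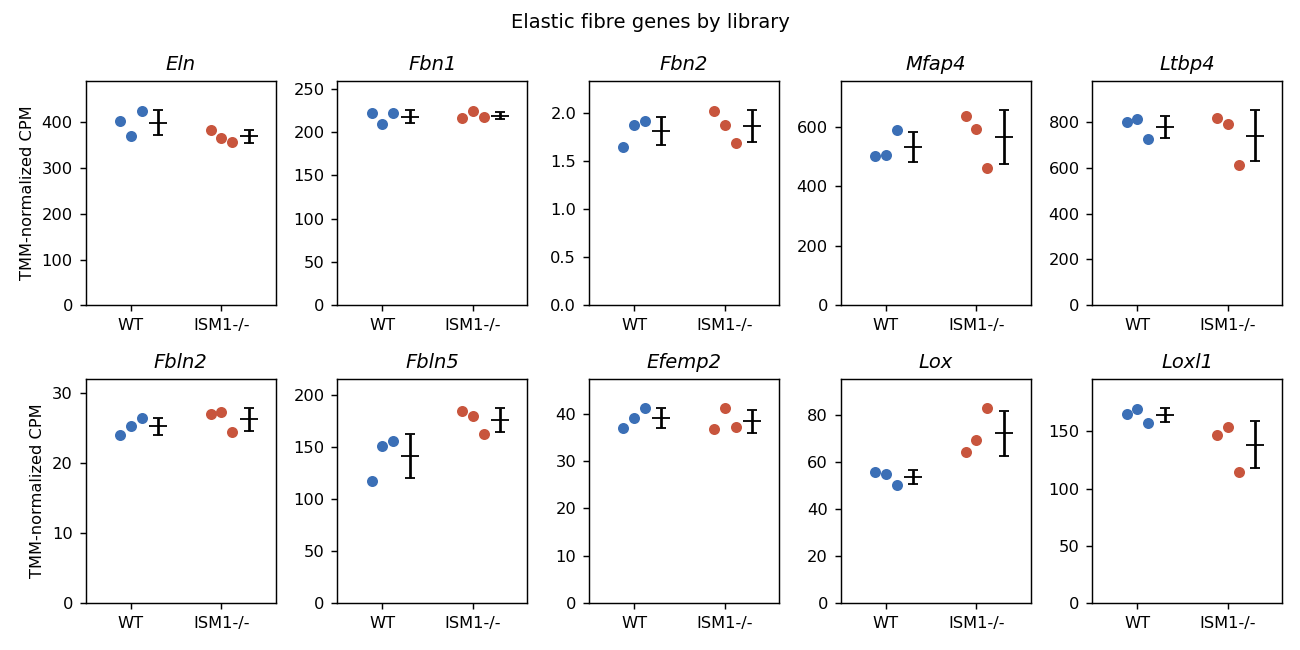
TMM-normalized CPM of each elastic fibre gene in the 3 WT and 3 *ISM1*-/- libraries (points), with mean ± SD (bars, n = 3) beside each genotype and each vertical axis starting at 0. The genotypes are without overlap in *Fbln5*, *Lox* and *Loxl1*, and *ISM1*-/- replicate 3, the right-most point, is the lowest in *Eln*, *Mfap4*, *Ltbp4* and *Loxl1* and the highest in *Lox*.

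The fibulins link tropoelastin to microfibrils and to the cross-linking enzymes. *Fbln5* (ENSMUSG00000021186, chromosome 12, 101746565 to 101819055, reverse strand), whose loss in mice leaves fragmented elastic fibres, had 117, 151 and 155 CPM in WT and 185, 180 and 163 CPM in *ISM1*-/-. All 3 *ISM1*-/- libraries lay above all 3 WT libraries, and WT replicate 1 stood well below the rest. The log2 fold change was 0.32 (SE 0.102), and the 95% interval, 1.06-fold to 1.46-fold, did not include equality, but the adjusted p of 0.155 in edgeR's quasi-likelihood test missed the threshold. DESeq2 on the same counts gave *Fbln5* an adjusted p of 0.0393, in a test that called 6.88% of all genes. Without WT replicate 1, the library with the high heart markers, the log2 fold change was 0.20 (adjusted p = 0.231 from the edgeR test). Summed markers of type 1 alveolar cells were low in that library as well, at 2425 CPM against 3229 to 3443 CPM in the other 5, and the part of either cell type in the *Fbln5* value was not tested.

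*Efemp2*, the gene of fibulin-4, which binds lysyl oxidase and brings it to tropoelastin, did not differ beyond the spread of the libraries. It lies on the forward strand of chromosome 19, from 5473973 to 5481853. It had 37.1, 39.1 and 41.3 CPM in WT and 36.9, 41.2 and 37.2 CPM in *ISM1*-/-, with a 95% interval of 0.878-fold to 1.10-fold. *Fbln2* (chromosome 6, 91212455 to 91272540, forward strand), a fibulin of vessel walls, had 24.0, 25.3 and 26.4 CPM in WT and 27.0, 27.3 and 24.4 CPM in *ISM1*-/-, with an interval of 0.930-fold to 1.16-fold. Their adjusted p values in the edgeR test were 0.903 and 0.777.

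Of the cross-linking enzymes, *Lox* was called and *Loxl1* was not. Lysyl oxidases are copper enzymes that oxidise lysines of tropoelastin and collagen so that they bond to one another. *Lox* (ENSMUSG00000024529, chromosome 18, 52516069 to 52529867, reverse strand) had 56.0, 55.2 and 50.4 CPM in WT and 64.6, 69.6 and 83.2 CPM in *ISM1*-/-. The genotypes did not overlap, and *ISM1*-/- replicate 3 was the highest. Its mean was 53.9 ± 3.06 CPM in WT and 72.5 ± 9.63 CPM in *ISM1*-/- (SD, n = 3), a log2 fold change of 0.43 (SE 0.0936, 95% interval 1.16-fold to 1.56-fold, edgeR adjusted p = 0.0477). With any single library omitted, *Lox* was still the higher in *ISM1*-/-, with log2 fold changes from 0.32 to 0.51. The adjusted p was under 0.1 in 3 of these 6 fits, at 0.0771 without WT replicate 1, 0.0681 without *ISM1*-/- replicate 1 and 0.0370 without *ISM1*-/- replicate 3. It was 0.142 without WT replicate 2, 0.154 without WT replicate 3 and 0.128 without *ISM1*-/- replicate 2.

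*Loxl1* (ENSMUSG00000032334, chromosome 9, 58287738 to 58313186, reverse strand) encodes the family member that maintains elastic fibres in adult tissue. It had 166, 170 and 158 CPM in WT and 147, 154 and 115 CPM in *ISM1*-/-. All *ISM1*-/- libraries lay below all WT libraries, with replicate 3 far below the other two. The log2 fold change of *Loxl1* was −0.25 (SE 0.0987), its 95% interval 0.723-fold to 0.982-fold and its adjusted p 0.253 in edgeR's quasi-likelihood test, which missed the threshold. Without *ISM1*-/- replicate 3 the log2 fold change was −0.13 (adjusted p = 0.250 from the edgeR test). Per length, *Loxl1* RNA was more abundant than *Lox* RNA in every library, with at least 34.3 FPKM against at most 20.3 FPKM.

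**Figure D3:**
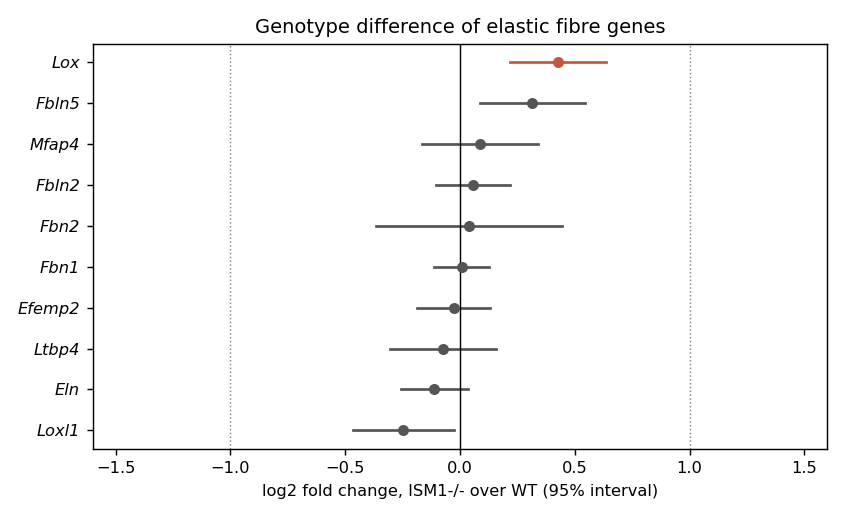
Log2 fold change of each elastic fibre gene, *ISM1*-/- over WT, with its 95% interval from edgeR's quasi-likelihood fit; dotted lines mark a 2-fold change and the coloured point is the gene with an adjusted p under 0.1. *Lox* is the coloured gene, and no interval reaches a 2-fold change.

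The intervals of the 10 genes show how large a difference these libraries could have held. All 10 lay inside a 2-fold change and 9 inside a 1.5-fold change, the exception being *Lox*. Those of *Eln*, *Fbn1*, *Fbln2* and *Efemp2* lay inside a 1.2-fold change in either direction. The interval included equality in 7 genes. The genotypes were without overlap in 3 of the 10 members, beside 21.6% of all genes tested. *Lox* and *Fbln5* were the higher ones, beside 9.33% of all genes, and *Loxl1* the lower one, beside 12.3%. The median log2 fold change of the 10 was 0.02, beside 0.00 for all genes, and the median of the absolute values was 0.08, beside 0.11 for all genes.

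The summed level of the 10 genes was 2354 ± 34.8 CPM in WT and 2347 ± 238 CPM in *ISM1*-/- (SD, n = 3). The wider spread in *ISM1*-/- came with replicate 3, at 2075 CPM against 2519 and 2448 CPM in the other two. With each profile of log2 CPM centred on its mean, the genes nearest to *Eln* among the 10830 genes that averaged 10 CPM or more were *Xrcc6*, *Sesn3*, *Tomm5*, *Mecr* and *Cox7c*, at root mean square differences of 0.0215 to 0.0272 over the 6 libraries. Of the other elastic fibre genes at this level *Fbn1* was the nearest, at 0.0786 and rank 712, and *Lox* the farthest, at 0.315 and rank 10590. *Fbn2*, at a mean of 1.84 CPM, was not compared. Since *Eln* varied little (coefficient of variation 6.60%), genes that varied little lie near it on this measure. Whether any of these genes is expressed together with *Eln* was not tested.

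**Figure D4:**
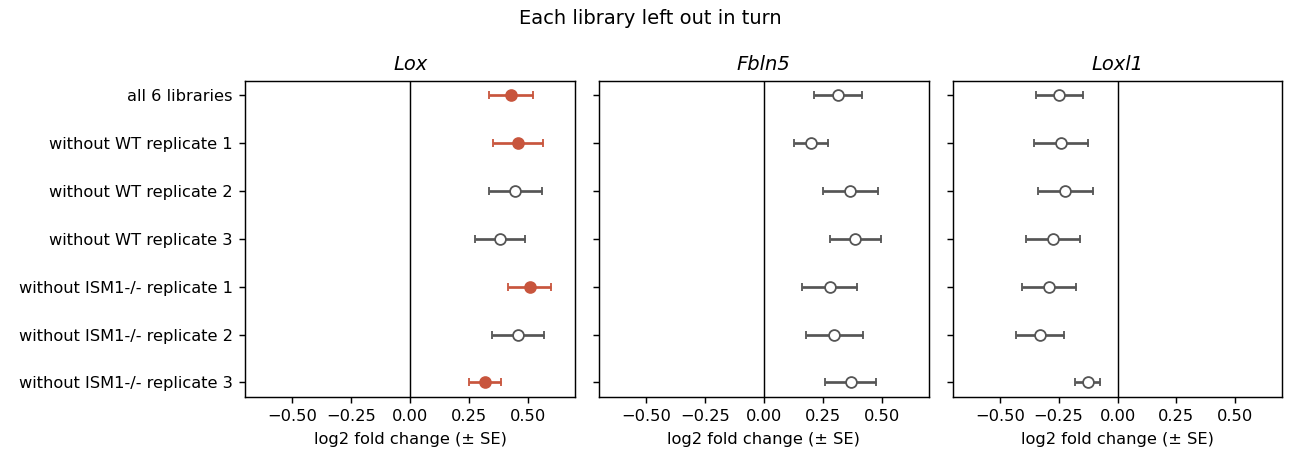
Log2 fold change (± SE) of *Lox*, *Fbln5* and *Loxl1* with all 6 libraries and with each library left out in turn; filled coloured points have an adjusted p under 0.1 in edgeR's quasi-likelihood test. All values of *Lox* and *Fbln5* lie above 0 and all of *Loxl1* below 0, and *Lox* is filled with all libraries and in 3 of the 6 other fits.

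Among 25 other genes of elastic fibre assembly, 1 was called, beside 4.72% of all genes tested, a share near the background. *Fbln1* (ENSMUSG00000006369, chromosome 15, 85205949 to 85286535, forward strand) encodes fibulin-1, a protein of basement membranes and elastic fibres, and had 88.4, 89.1 and 86.3 CPM in WT and 51.7, 63.8 and 51.5 CPM in *ISM1*-/-. The genotypes lay far apart relative to the spread within each. Its log2 fold change was −0.66 (SE 0.0850, edgeR adjusted p = 0.0107), or 0.633-fold with a 95% interval of 0.555-fold to 0.722-fold, a larger difference than that of any of the 10 members. It stayed a call with any single library omitted, at adjusted p values from 0.00444 to 0.0630.

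The other 24 genes did not pass. The most abundant per length were *Efemp1* (fibulin-3, 103 FPKM), *Adamts10* (a secreted protease that binds fibrillin, 102 FPKM) and *Itgb5* (an integrin chain that pairs with αv, 90.2 FPKM), with log2 fold changes of 0.13, 0.02 and −0.01. The median log2 fold change of the 25 genes was −0.01, with 11 above 0 and 14 below. The other lysyl oxidase genes, *Loxl2*, *Loxl3* and *Loxl4*, are named after their values were seen, and none of them passed. *Loxl2* had 23.2, 21.6 and 23.3 CPM in WT and 24.6, 25.7 and 25.8 CPM in *ISM1*-/- (edgeR adjusted p = 0.267). *Loxl4* had 6.23, 6.23 and 6.30 CPM in WT and 4.91, 4.87 and 4.99 CPM in *ISM1*-/- (edgeR adjusted p = 0.146). *Loxl2* was thus without overlap in the upward direction and *Loxl4* in the downward one, while the genotypes overlapped in *Loxl3* (log2 fold change 0.11, edgeR adjusted p = 0.643). Over the whole list 5 of 25 genes were without overlap, near the 21.6% of all genes tested. The higher ones were 2, *Loxl2* and *Itgb3*, beside 9.33% of all genes. The lower ones were 3, *Fbln1*, *Loxl4* and *Thsd4*, beside 12.3%.

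**Figure D5:**
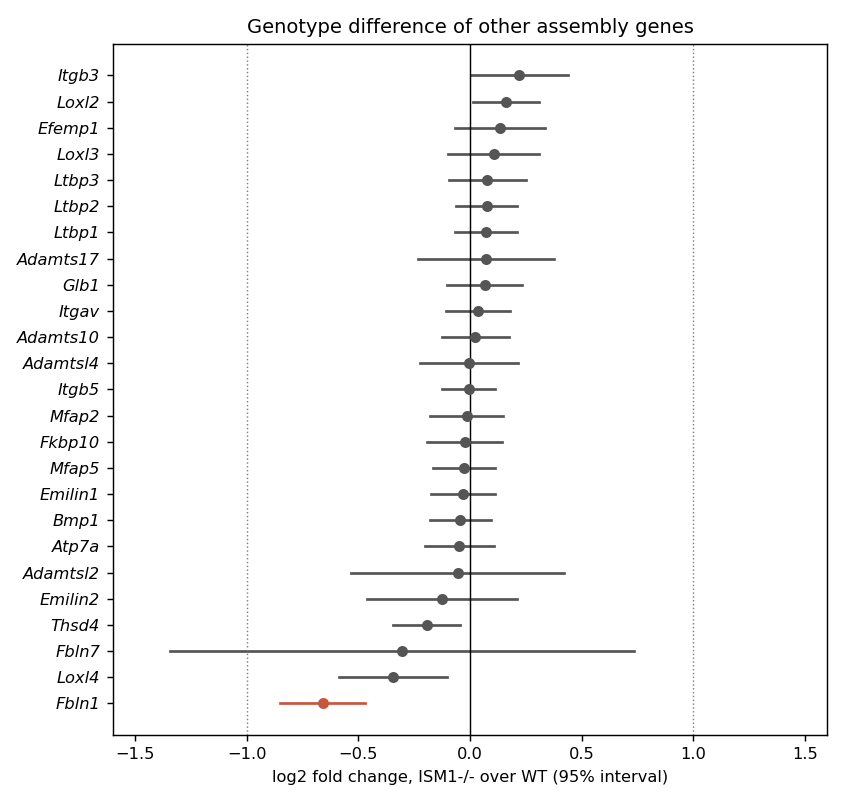
Log2 fold change of the 25 other elastic fibre assembly genes, *ISM1*-/- over WT, with 95% intervals from edgeR's quasi-likelihood fit; the coloured point has an adjusted p under 0.1 and dotted lines mark a 2-fold change. *Fbln1* is the coloured gene, and *Fbln7*, the gene with the lowest level, has the widest interval.

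Enzymes that degrade elastin, and their inhibitors, were read beside the fibre genes. Of 23 such genes, 15 reached 0.5 CPM in a library and were tested. The edgeR quasi-likelihood test called 0 of them, beside 4.72% of all genes tested, and DESeq2 called 0, beside 6.88%. In edgeR 3 had an unadjusted p under 0.05, beside 15.8% of all genes tested. They were *Prtn3*, *Timp1* and *Slpi*, named after their values were seen. Their log2 fold changes were −0.68, −0.40 and 0.20 (edgeR adjusted p = 0.284, 0.262 and 0.241). *Elane* and *Ctsg*, which encode neutrophil serine proteases, *Mmp7* and the 5 *Serpina1* genes of α1-antitrypsin were below 0.5 CPM and were not tested. *Prtn3*, another neutrophil serine protease gene, was tested at a low level. It had 0.927, 0.939 and 0.698 CPM in WT and 0.634, 0.421 and 0.538 CPM in *ISM1*-/-. The most abundant elastases per length were *Ctss*, *Ctsl* and *Mmp2*, at 106, 102 and 81.8 FPKM, with log2 fold changes of 0.09, 0.00 and −0.07. Among the inhibitors *Cst3* (cystatin C), *Timp3* and *Timp2* led at 828, 429 and 323 FPKM, with log2 fold changes of 0.08, 0.17 and 0.01. The macrophage elastase gene *Mmp12*, known for its role in emphysema of mice exposed to smoke and named here after its values were seen, had 5.64, 3.39 and 3.64 CPM in WT and 6.53, 6.64 and 3.82 CPM in *ISM1*-/- (adjusted p = 0.456 from the edgeR test), and the genotypes overlapped.

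Markers of the cells that make elastic fibres were compared in the same libraries. These lists were chosen with earlier results of these data known, so counts of called markers describe the lists and are not independent support. Of 8 fibroblast markers, 3 were called lower and 0 higher, namely *Col1a1*, *Dcn* and *Lum*, with log2 fold changes of −0.33, −0.54 and −0.76, beside 3.34% of all genes called lower. The other 5 had log2 fold changes of −0.18 (*Col1a2*), 0.01 (*Col3a1*), 0.08 (*Pdgfra*), 0.17 (*Tcf21*) and 0.06 (*Inmt*). The summed level of the 8 was 3221 to 3402 CPM in WT and 3117 to 3296 CPM in *ISM1*-/-. *Inmt* was the largest part of this sum, at 1124 to 1297 CPM in WT and 1159 to 1364 CPM in *ISM1*-/-. Of 5 adventitial fibroblast markers, 3 were called lower, *Pi16*, *Cd248* and *Dpt* (−0.97, −0.46 and −0.26), while *Dpp4* and *Ly6a* had 0.14 and 0.07. Their summed level overlapped between the genotypes, at 658 to 731 CPM in WT and 643 to 742 CPM in *ISM1*-/-. *Ly6a* was the largest part of this sum, at 307 to 360 CPM in WT and 322 to 394 CPM in *ISM1*-/-. *Pi16* was a small part, at 33.0 to 35.8 CPM in WT and 15.8 to 19.5 CPM in *ISM1*-/-, so the sum says little about it. Of 6 smooth muscle markers, 1 was called lower, *Cnn1* (−0.75). The others were not called but were all below 0, at −0.59 (*Actg2*), −0.35 (*Acta2*), −0.32 (*Myh11*), −0.11 (*Des*) and −0.02 (*Tagln*). The summed level of the 6 overlapped between the genotypes, at 542 to 629 CPM in WT and 445 to 562 CPM in *ISM1*-/-. All 5 adipocyte markers were called lower. The part of these cells in the values of *Lox* and *Fbln1* was not tested.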

How the data were processed

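RNA-Seq of perfused whole lung was available for 3 WT and 3 *ISM1*-/- samples, from mice 2 months old. The authors enriched poly-A RNA, made strand-specific libraries, sequenced read pairs and mapped them to GRCm38 with STAR (CASAVA and STAR are named without version in the submitters' processing notes). The counting program, annotation release and strand setting are not given in the sources used here. The authors deposited raw read counts per gene, without normalization, and FPKM values, in which counts are scaled to the library total and to a length for each gene.

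Groups and replicate numbers were taken from the sample titles. The count analysis used edgeR 4.0.16 and limma 3.58.1 under R 4.3.3: a filter keeping genes that reached 0.5 CPM in 1 library or more, TMM scaling, estimateDisp, glmQLFit and glmQLFTest without covariates, Benjamini-Hochberg adjustment over all genes tested, and a call at an adjusted p under 0.1. SE and 95% intervals were derived from the quasi-likelihood F statistic. Pairs of libraries differed by 5.37 to 29.6 times the sampling noise (chi-square per degree of freedom), so none looked like 1 library deposited again; this does not show that they are separate animals. Alternatives were DESeq2 1.42.0, RLE and upper-quartile scaling, other filters and thresholds, a replicate block and the omission of each library. DESeq2 on protein-coding genes, with and without the study's 2-fold minimum, library totals only and the length column were added after seeing the data. Overlaps and transcript lengths came from GENCODE release M21, in which 3 of the 10 members have other coordinates. The tests were tried on simulated counts.

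The 10 members and the gene lists were chosen with earlier results of these data known. Named are the 10 members, *Ism1*, called genes of the lists and their 3 most abundant genes per length (elastases and inhibitors taken separately), the 5 genes nearest to *Eln*, marker genes, and others where said. No protein or promoter sequence is printed.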

Additional observations from a re-analysis of the deposited data

How the results depend on the processing

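With 3 libraries per genotype, the calls near the threshold depended on the settings. The number of elastic fibre genes called was 1 in the reported fit, beside 882 of all 18689 genes tested. It was 2 with DESeq2 (*Lox* and *Fbln5*), beside 1285 of 18689. With DESeq2 on protein-coding genes averaging over 2 CPM (threshold 0.05) it was also 2, beside 894 of 13358. It was 0 once the study's 2-fold minimum was added to these settings, beside 39 of 13358. Without a filter on low counts it was 3 (*Lox*, *Fbln5* and *Loxl1*), beside 1632 of 31946. With a 2-fold minimum it was 0, beside 106 of 18689. It lay between 0 and 1 with each library left out, and was 0 without WT replicate 2, WT replicate 3 or *ISM1*-/- replicate 2. Calls over all genes in these fits were 150, 341 and 261. The labels do not say whether replicate numbers pair the libraries. The deviations of same-numbered libraries correlated at −0.03, 0.03 and 0.04 across 15876 genes, and not every library correlated best with its own number. With 3 libraries per genotype, these correlations cannot show whether the libraries were paired. With the replicate number as a block, 2 members were called (*Lox*, and *Loxl1* at a log2 fold change of −0.26 and an adjusted p of 0.0989), the call of *Fbln1* was kept and all other members stayed on their side of the threshold.

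In the 9 alternative fits of all 6 libraries (scaling, filter, DESeq2 and block), *Lox* had an adjusted p of 0.0489 or less and a log2 fold change of 0.42 to 0.44. The calls in the assembly list were 0 with a 2-fold minimum in either tool and 1 to 2 with each library left out (*Thsd4* was added without *ISM1*-/- replicate 3), and those among elastin-degrading enzymes and inhibitors 0 to 1 (*Mmp9*, without *ISM1*-/- replicate 3). The number of calls over all genes, 882, was 1632 without a filter, 455 at an adjusted p under 0.05 and 106 with a 2-fold minimum. It was 150 to 1470 with each library left out. With that minimum, DESeq2 on protein-coding genes averaging over 2 CPM called 39 at an adjusted p under 0.05, settings given in the study's methods. The study's results use another filter and a false discovery rate below 0.1, so their gene counts are not comparable with the 39. With each library left out, the log2 fold change turned sign in members near equality, ranging from −0.019 to 0.023 for *Fbn1* (negative without WT or *ISM1*-/- replicate 2), −0.024 to 0.105 for *Fbn2* (negative without WT or *ISM1*-/- replicate 1), −0.0077 to 0.213 for *Mfap4* (negative without *ISM1*-/- replicate 1), −0.150 to 0.046 for *Ltbp4* (positive without *ISM1*-/- replicate 3) and −0.080 to 0.011 for *Efemp2* (positive without WT replicate 3 or *ISM1*-/- replicate 1). The cause of these changes was not tested. The median log2 fold change of all genes stayed between −0.01 and 0.01 over all settings. The order of the members per length was the same in TPM, and 6 members changed rank with the gene length column.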

Other observations

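The ratio of *Lox* to *Loxl1* was formed after the values were seen. In TMM-normalized CPM it was 0.338, 0.325 and 0.319 for WT, against 0.439, 0.453 and 0.726 for *ISM1*-/-. Since *Lox* and *Loxl1* were each without overlap, in opposite directions, the ratio had to be without overlap too and adds no support to either. *ISM1*-/- replicate 3 held the highest ratio, and had the highest *Lox* and the lowest *Loxl1* of the 6 libraries. No test was run on the ratio.

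Of the 6 fibulin genes in the lists used here, *Fbln1* passed edgeR's quasi-likelihood test in the fit of all 6 libraries, at 63.3% of its WT mean. The others did not pass and were at 124% (*Fbln5*), 110% (*Efemp1*), 104% (*Fbln2*), 98.1% (*Efemp2*) and 80.5% (*Fbln7*).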
